A study of Rattus norvegicus with 36 samples.

Results

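Axon guidance genes encode the ligands and receptors that steer growing nerve fibres. Here they were followed in the lung of rats kept in normal air or in hypoxia. All genes of the count table whose names belong to the semaphorin, plexin, neuropilin, ephrin, Eph, Slit, Robo, Unc5 and netrin families were taken, 57 of 27308 genes. They comprised 17 semaphorins, 8 plexins, 2 neuropilins, 8 ephrins, 9 Eph receptors, 2 Slits, 3 Robos, 2 netrins and 4 Unc5 receptors. The other 2 names, Unc50 and Unc5cl, begin with the same letters but are not netrin receptors. Counts were high enough to test in 52 of the 57. Robo1, Ephb4 and some other members of these families were not analysed here.

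Semaphorins signal through plexins, and those of class 3 mostly need a neuropilin as coreceptor. Slits bind Robo receptors, netrins bind Unc5 and other receptors, and ephrins, which stay on the cell surface, bind Eph receptor kinases on neighbouring cells. Outside the nervous system the same proteins act in blood vessel growth and in lung branching, and Robo4, Unc5b, Plxnd1 and Efnb2 are known from endothelial cells.

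All rats were Sprague Dawley carrying HuSlc39a12, a knock-in that replaces rat Slc39a12, the gene of the zinc transporter ZIP12, by its human counterpart. Adults of either sex, weighing 200 to 240 g, formed 3 arms of 12 lung libraries, each with 6 males and 6 females. The first arm stayed in normoxia, and both others spent 2 weeks at 10% oxygen without a change in air pressure. The hypoxic rats were injected intraperitoneally with 10 mg/kg of control IgG or of APL-9796, an antibody to ZIP12, from 48 h before hypoxia and then every 3 days. No antibody is named in the normoxic labels, and the effects of hypoxia and of IgG therefore cannot be told apart. Whether every library had its own animal is not stated, so p-values measure the spread between libraries.

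Totals ran from 6.07 to 20.8 M counts per library, with a median of 11.1 M. The surfactant genes that mark lung were abundant: Sftpc averaged 11990 CPM (counts scaled to library size) in normoxia. Female normoxia 8 and female normoxia 9 stood apart from the rest. Their summed alveolar type II markers reached 30826 and 41656 CPM, against at most 22230 CPM in the other normoxic libraries, and their fibroblast and pericyte markers were the lowest of all libraries. Another 3 libraries were high in cardiac and skeletal muscle markers: male APL-9796 5 with 2570 CPM, male IgG 6 with 1094 CPM and female IgG 11 with 654 CPM, against at most 285 CPM in any other. Adipocyte markers reached 356 CPM in male IgG 6 and 182 CPM in female IgG 11, beside at most 56.8 CPM elsewhere. For several results the values without the pair or without these 3 libraries are also given.

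In hypoxia with IgG, the receptor gene Robo4 was 1.95-fold and the ligand gene Sema3c 1.87-fold the normoxic level, Unc5b was 1.50-fold and Nrp1 1.27-fold that level, and Unc5d, Efna1, Efnb2 and Sema3a were lower. These 4 higher and 4 lower genes were 15.4% of the 52 tested, and 12.5% of all 15570 genes tested (6.31% higher, 6.19% lower) passed the same threshold, a Benjamini-Hochberg adjusted p (FDR) under 0.05 in edgeR's quasi-likelihood test. Over all 36 libraries, the share called was thus close to the background. Without female normoxia 8 and 9, lower calls were a larger share of the members than of all genes. Higher calls then stayed near the background, and the counts are given with the semaphorins below. Receptors had 3 higher and 1 lower of 23 tested, and ligands 1 higher and 3 lower of 27. The median log2 change was 0.15 for receptors and -0.03 for ligands, beside -0.02 for all genes. Members changed in both directions within the semaphorin and Unc5 families. In whole lung, fewer cells of a type and less RNA per cell cannot be told apart, nor can more of either.

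**Figure D1:**
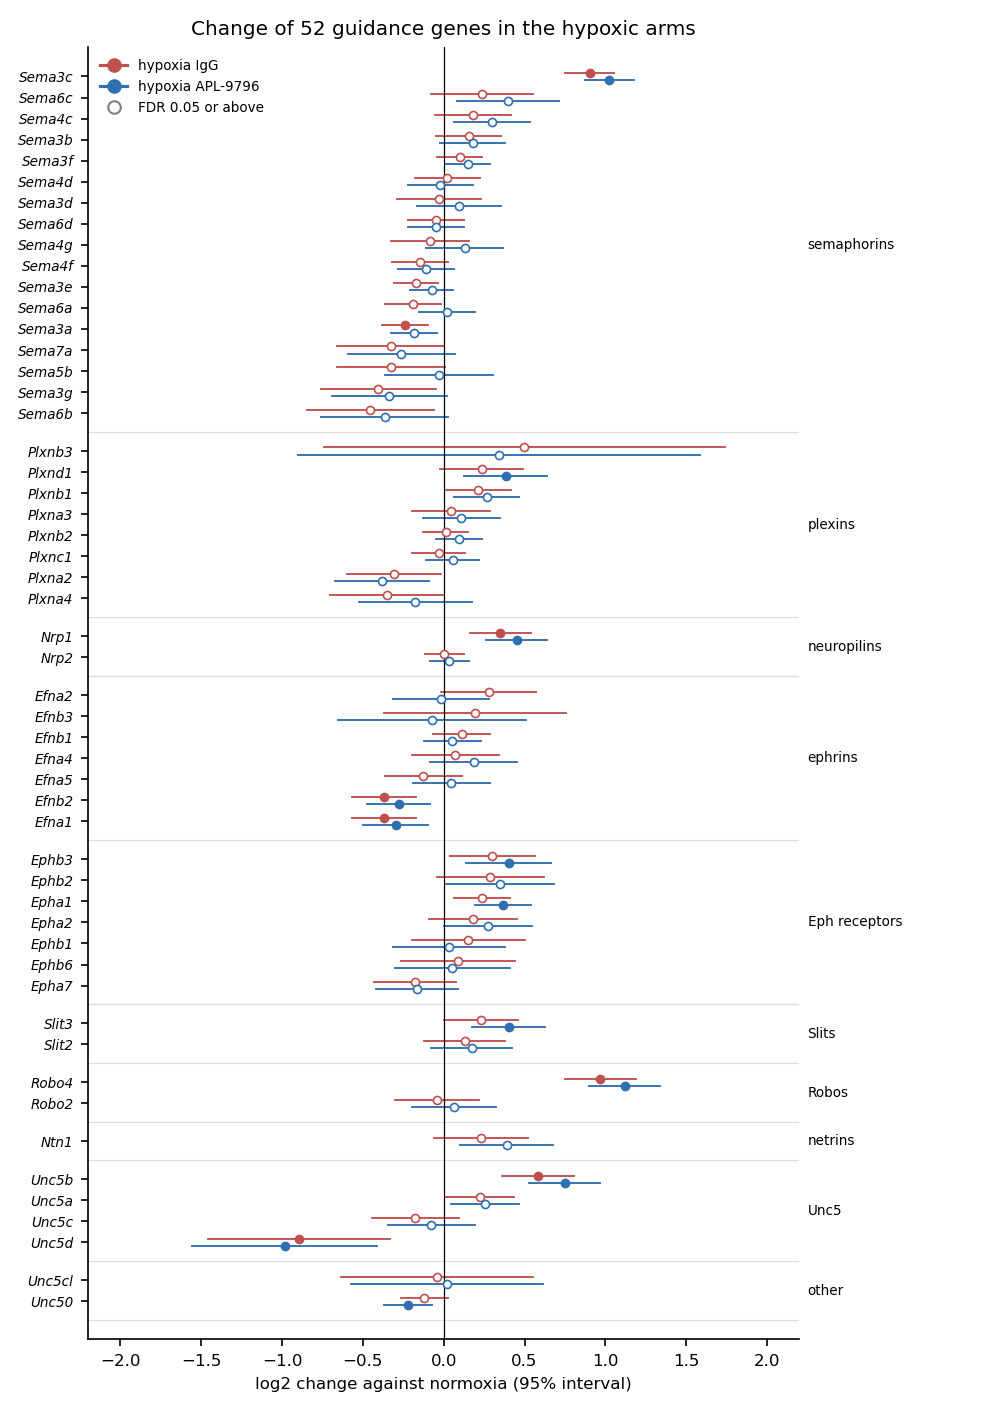
Log2 change against normoxia (horizontal axis, with 95% intervals) of the 52 tested guidance genes, grouped by family, for hypoxia with IgG (red) and hypoxia with APL-9796 (blue); filled points passed FDR 0.05. Sema3c and Robo4 lie farthest to the right among the filled points, at 0.90 and 0.97 with IgG, and Unc5d farthest to the left, at -0.90. Both arms are set against the same normoxic libraries.

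Among the ligands, Sema3c (rCG_24388) encodes a secreted class 3 semaphorin that in the mouse is needed for the arteries leaving the heart. Its level lay between 425 and 640.4 CPM in normoxia, with a median of 535. In hypoxia with IgG it lay between 885 and 1211 CPM (median 984), and with APL-9796 between 909.7 and 1353 CPM (median 1094). Every hypoxic library stood above every normoxic one. This complete separation from normoxia held for 0.604% of all tested genes with IgG and for 0.623% with APL-9796. Sema3c rose by log2 0.90 ± 0.07 (SE) with IgG (FDR = 3.4e-11) and 1.02 ± 0.08 with APL-9796 (FDR = 1.2e-12).

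Sema3a (rCG_41023), a secreted repellent that acts through Nrp1, went the other way. It ranged from 45.7 to 68.0 CPM in normoxia (median 53.5), from 35.3 to 52.8 CPM with IgG (median 48.8) and from 39.4 to 56.2 CPM with APL-9796 (median 48.8). The ranges overlapped, and 3 IgG libraries lay below the lowest normoxic one. Its log2 change was -0.24 ± 0.07 with IgG (FDR = 0.0207). The call was lost without the 3 libraries high in muscle markers (-0.16, FDR = 0.124) and in a fit of only the groups compared. It was also lost in the 26 libraries whose read files carry the same pool and flow cell codes, here called the largest sequencing run (-0.19, FDR = 0.237). The same held when any of 7 libraries was left out singly: male IgG 6, female IgG 7 or 11, male normoxia 3 or 5, or female normoxia 10 or 11 (FDR up to 0.068, log2 from -0.26 to -0.20 over all 36 such fits). With APL-9796 the change was -0.18 ± 0.07 (FDR = 0.0653) and did not pass.

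The other 15 semaphorins did not pass in either comparison with normoxia. Of all 17, 6 had a log2 change above 0 with IgG and 11 below, beside 45.2% of all genes above 0. The transmembrane Sema6b (-0.45 ± 0.19, FDR = 0.122) and the secreted Sema3g (-0.40 ± 0.17, FDR = 0.130) lay lowest. Female normoxia 9 was the lowest normoxic library for both, at 3.03 CPM for Sema6b and 32.2 CPM for Sema3g. Without female normoxia 8 and 9, 7 semaphorins fell in hypoxia with IgG: Sema3a, Sema3e, Sema3g, Sema4f, Sema5b, Sema6a and Sema6b. The plexin gene Plxna4 also fell in that comparison. Of all 15744 genes tested without the pair, 4.17% were lower and 7.12% higher, beside 10 and 4 of 53 members.

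Of the semaphorin receptors, 1 of 2 neuropilins and 0 of 8 plexins rose with IgG, beside 6.31% of all genes. Nrp1 (rCG_50933), coreceptor of class 3 semaphorins and of vascular endothelial growth factor, had 223 to 503.6 CPM in normoxia (median 395). With IgG its range was 375 to 588 CPM (median 489), and with APL-9796 it was 366 to 665 CPM (median 531). Ranges overlapped, with 4 IgG and 8 APL-9796 libraries above the highest normoxic one. On the log2 scale Nrp1 rose by 0.35 ± 0.09 with IgG (FDR = 0.00946) and 0.45 ± 0.09 with APL-9796 (FDR = 0.00062). In the largest sequencing run alone, Nrp1 stood at 0.35 with IgG and missed the threshold (FDR = 0.0510). Its relative Nrp2, a receptor of lymphatic endothelium and nerve, had a log2 change of 0.00 ± 0.06 with IgG (FDR = 0.974).

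Among the plexins, Plxnd1 (rCG_30309), the endothelial receptor for Sema3e, lay between 103 and 404 CPM in normoxia (median 299), 242 and 454 CPM with IgG (median 317) and 283 and 432 CPM with APL-9796 (median 369). Female normoxia 8 and 9, at 137 and 103 CPM, were the lowest libraries of all. Its log2 change was 0.23 ± 0.13 with IgG (FDR = 0.242) and 0.38 ± 0.13 with APL-9796 (FDR = 0.0310), and the latter was 0.25 (FDR = 0.0645) without those libraries and 0.35 (FDR = 0.116) in the largest run alone. The call with APL-9796 was also lost with the sequencing run as a term and with only the groups compared. Plxnb2, a receptor for class 4 semaphorins, had -0.05 with IgG without female normoxia 8 and 9, and 0.01 ± 0.07 with them (FDR = 0.940). Plxna2 and Plxna4, receptors that work with neuropilins or bind class 6 semaphorins, had log2 changes of -0.31 (FDR = 0.159) and -0.35 (FDR = 0.185).

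Robo4 (rCG_58854), the endothelial member of the Slit receptor family, separated the arms as completely as Sema3c. In normoxia it lay between 14.2 and 35.6 CPM, with a median of 27.8. In hypoxia it lay between 38.7 and 69.8 CPM with IgG (median 48.9) and between 40.1 and 76.2 CPM with APL-9796 (median 52.5). Again no hypoxic library reached down to the highest normoxic one. Robo4 changed by log2 0.97 ± 0.11 with IgG (FDR = 3.1e-08) and 1.12 ± 0.11 with APL-9796 (FDR = 1.2e-09). Female normoxia 8 and 9 had the lowest levels, and without them the change with IgG was 0.89 (FDR = 1.3e-07). Robo2, a Slit receptor best known from neurons, had -0.04 ± 0.13 (FDR = 0.876).

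Of the ligands for these receptors, Slit3 (rCG_34383) lay between 78.4 and 312 CPM in normoxia (median 241), 198 and 314 CPM with IgG (median 222.5) and 209 and 329 CPM with APL-9796 (median 274). Its 5 lowest libraries of all 36 were female normoxic ones. The log2 change was 0.23 ± 0.11 with IgG (FDR = 0.193) and 0.40 ± 0.11 with APL-9796 (FDR = 0.0114). In the largest run alone the latter was 0.39 and missed the threshold (FDR = 0.0576). Slit2 had 0.13 ± 0.12 with IgG (FDR = 0.537).

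Unc5b (rCG_22144), an endothelial netrin receptor that in the mouse also binds Robo4, was also higher. Its level was 18.9 to 74.6 CPM in normoxia (median 54.4), 50.6 to 94.7 CPM with IgG (median 77.0) and 58.8 to 124 CPM with APL-9796 (median 81.6). Ranges overlapped over all libraries, with 6 IgG and 10 APL-9796 libraries above the highest normoxic one. The log2 change was 0.58 ± 0.11 with IgG (FDR = 0.00023) and 0.75 ± 0.11 with APL-9796 (FDR = 4.8e-06). Without female normoxia 8 and 9 it was 0.48 with IgG (FDR = 4.5e-05). In males alone the change with IgG was 0.48 ± 0.15 and did not pass (FDR = 0.0834). In females alone it was 0.69 ± 0.16 (FDR = 0.0029).

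Unc5d (rCG_43262), a relative that also signals in cell death, was scarce and fell. It lay between 1.03 and 4.37 CPM in normoxia (median 2.85), 0.211 and 4.55 CPM with IgG (median 1.28) and 0.448 and 2.76 CPM with APL-9796 (median 1.32). Male IgG 4 had the highest level of all libraries, while 11 of 12 IgG libraries lay below the normoxic mean of their sex. Its log2 change was -0.90 ± 0.28 with IgG (FDR = 0.0272) and -0.98 ± 0.28 with APL-9796 (FDR = 0.0131). The call with IgG was lost without male IgG 1, 2 or 3 or female IgG 7, taken singly (FDR up to 0.0583), in the largest run alone (-0.92, FDR = 0.141), and without the 3 libraries high in muscle markers (-0.86, FDR = 0.0607). Unc5a and Unc5c had log2 changes of 0.23 (FDR = 0.154) and -0.18 (FDR = 0.418) with IgG. Ntn1, the main netrin ligand, had 4.99 to 23.1 CPM in normoxia, 12.9 to 25.2 CPM with IgG and 10.3 to 27.1 CPM with APL-9796, and log2 changes of 0.23 ± 0.14 (FDR = 0.313) and 0.39 ± 0.14 (FDR = 0.0525). The latter lay past the threshold in 24 of 36 fits without 1 library and in 5 of the other 11 alternatives.

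**Figure D2:**
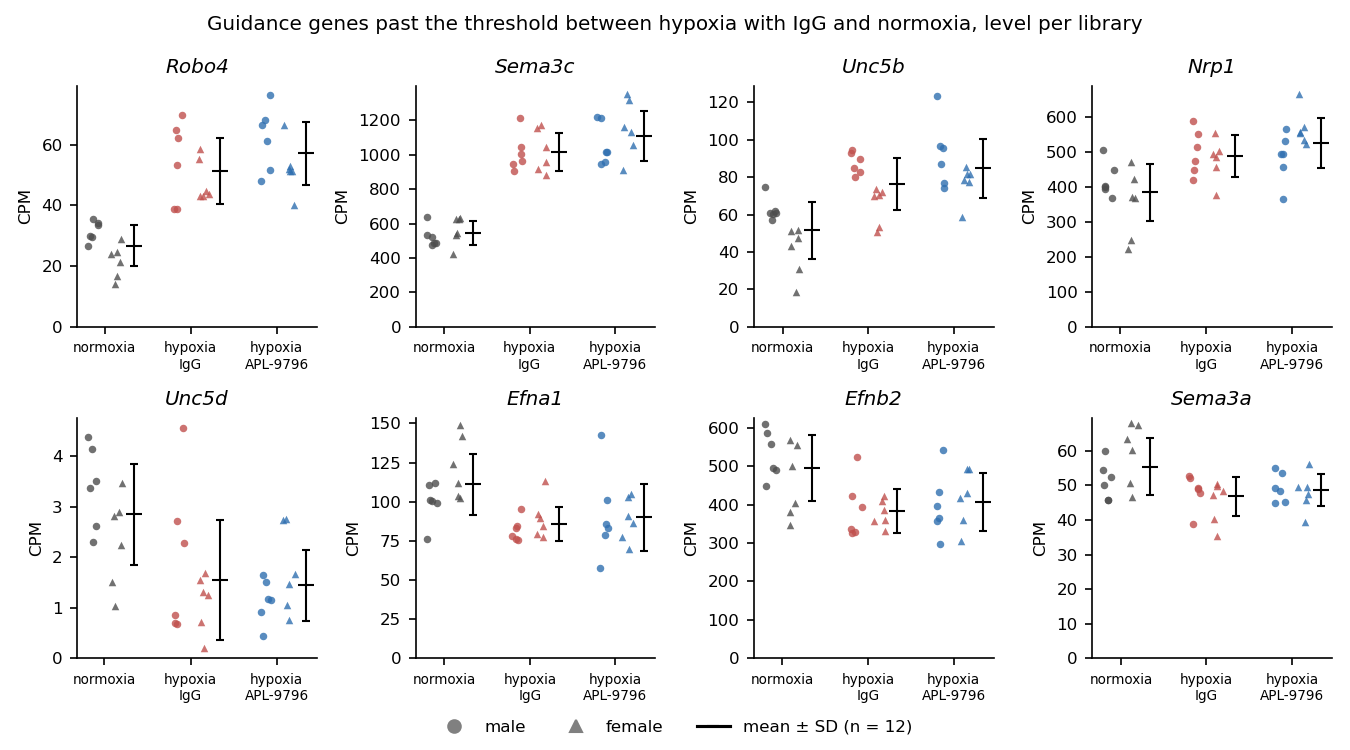
Level in CPM (vertical axis, from 0) of the 8 guidance genes that passed FDR 0.05 between hypoxia with IgG and normoxia, with 1 point per library (circles male, triangles female) and the mean ± SD of each arm of 12. For Robo4 and Sema3c all 24 hypoxic points lie above all 12 normoxic points, and for the other 6 the arms overlap.

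Robo4, Sema3c and Unc5b kept their calls over both sexes in every alternative fit run, and their start regions are shown for the letters they hold. The motif searched was ACGTG on either strand, a core sequence recognised by hypoxia-inducible factors. The windows are RefSeq sequence of GRCr8 from 250 bases before to 50 bases after the annotated start, read on the gene's strand, and capitals mark ACGTG or its reverse complement CACGT. They lie at chr8:45308489-45308788 (plus strand) for Robo4, chr4:18699578-18699877 (minus strand) for Sema3c and chr20:29307221-29307520 (minus strand) for Unc5b.
Robo4: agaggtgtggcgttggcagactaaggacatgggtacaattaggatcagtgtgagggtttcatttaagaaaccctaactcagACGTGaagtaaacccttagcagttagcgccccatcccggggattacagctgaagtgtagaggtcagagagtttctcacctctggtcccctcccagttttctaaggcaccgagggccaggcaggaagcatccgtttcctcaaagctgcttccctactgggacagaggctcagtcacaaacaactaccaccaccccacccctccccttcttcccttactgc
Sema3c: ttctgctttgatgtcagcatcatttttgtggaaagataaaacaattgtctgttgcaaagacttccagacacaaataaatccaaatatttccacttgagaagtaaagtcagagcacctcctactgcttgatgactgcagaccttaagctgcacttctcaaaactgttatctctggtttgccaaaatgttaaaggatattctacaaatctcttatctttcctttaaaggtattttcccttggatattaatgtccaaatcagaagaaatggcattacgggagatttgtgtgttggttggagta
Unc5b: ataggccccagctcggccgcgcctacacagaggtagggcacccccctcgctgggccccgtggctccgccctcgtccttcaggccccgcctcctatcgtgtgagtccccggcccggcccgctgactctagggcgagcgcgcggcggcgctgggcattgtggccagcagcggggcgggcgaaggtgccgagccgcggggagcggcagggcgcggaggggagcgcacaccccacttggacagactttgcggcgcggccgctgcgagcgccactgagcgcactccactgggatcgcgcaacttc
Robo4 held 1 match, 169 bases before its start, and the windows of Sema3c and Unc5b held none. Windows were found for 46 of the 57 genes, and 12 of them (26.1%) held a match, as did 6444 of the 33469 windows of the table (19.3%). The palindrome CACGTG, counted within both, was in 4 of the 46 (8.70%) and in 6.42% of all windows. Ephb3 and Slit3 held a match, while Nrp1, Efna1 and Plxnd1 were not among the genes with one. A match here is a string of letters and was not tested for binding.

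With IgG and all 36 libraries, 2 of 7 tested ephrins were lower, beside 6.19% of all genes. No family had a larger share of lower calls, but this ranking rests on 2 genes. It did not hold without the 2 female normoxic libraries that stood apart. Efna1 then lost its call, and 7 semaphorins were lower, beside 4.17% of all genes. Efnb2 (rCG_43287), a transmembrane ephrin that marks arterial endothelium, lay between 347 and 611 CPM in normoxia (median 498), 327 and 524 CPM with IgG (median 373) and 297 and 541 CPM with APL-9796 (median 407). All 12 IgG libraries lay below the normoxic mean of their sex, although the ranges overlapped. The log2 change was -0.37 ± 0.10 with IgG (FDR = 0.00879) and -0.28 ± 0.10 with APL-9796 (FDR = 0.0413). The first call was lost in the largest run alone (-0.39, FDR = 0.0820). The second was lost in 26 of 36 fits without 1 library (FDR up to 0.10) and without the 3 libraries high in muscle markers (-0.25, FDR = 0.0927). The second was also lost with RLE scaling, with no filter, with the filter at 1 CPM and with only the groups compared.

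Efna1 (rCG_62516), a membrane-anchored ligand of Epha2, lay between 76.3 and 149 CPM in normoxia (median 107), 75.5 and 113 CPM with IgG (median 83.6) and 57.4 and 142 CPM with APL-9796 (median 86.1). Here too every IgG library stood below the normoxic mean of its sex. The same held for Sema3e (FDR = 0.0808) and Sema6b (FDR = 0.122), which did not pass with IgG. For such counts no share over all genes was computed. The log2 change was -0.37 ± 0.10 with IgG (FDR = 0.00973) and -0.30 ± 0.10 with APL-9796 (FDR = 0.0329). Female normoxia 9 had the highest level of all libraries, and without female normoxia 8 and 9 the changes were -0.30 (FDR = 0.0594) and -0.23 (FDR = 0.169). The call with APL-9796 was also lost in 20 of 36 fits without 1 library (FDR up to 0.0919), with no filter (FDR = 0.0528) and with only the groups compared (FDR = 0.0889). Efnb1, Efnb3, Efna2, Efna4 and Efna5 did not pass.

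No Eph receptor passed with IgG. A log2 change above 0 was found in 6 of the 7 tested, beside 45.2% of all genes. With APL-9796, Epha1 (rCG_28177) and Ephb3 (rCG_36502), both receptor kinases, rose. Epha1 had 25.9 to 48.7 CPM in normoxia (median 40.2), 39.0 to 54.4 CPM with IgG (median 45.9) and 37.8 to 66.9 CPM with APL-9796 (median 49.6), with log2 changes of 0.23 ± 0.09 (FDR = 0.0664) and 0.37 ± 0.09 (FDR = 0.0022). Ephb3 had 12.5 to 44.6 CPM in normoxia (median 30.8), 22.6 to 45.6 CPM with IgG (median 38.6) and 29.2 to 48.0 CPM with APL-9796 (median 42.4), with 0.30 ± 0.13 (FDR = 0.131) and 0.40 ± 0.13 (FDR = 0.0280). Both overlapped with normoxia, and Ephb3 missed the threshold without female normoxia 8 and 9 (0.31, FDR = 0.0748). Epha2, a receptor of Efna1 in epithelium and endothelium, had 0.18 ± 0.13 with IgG (FDR = 0.420).

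In hypoxia with APL-9796, 8 members were higher than in normoxia and 4 lower, 23.1% of those tested beside 18% of all genes (9.08% higher, 8.93% lower). The higher ones were Robo4, Sema3c, Unc5b, Nrp1, Slit3, Plxnd1, Ephb3 and Epha1, and the lower ones Unc5d, Efna1, Efnb2 and Unc50. Unc50, whose worm counterpart helps to carry acetylcholine receptors to the cell surface, had 32.8 to 66.1 CPM in normoxia (median 37.4) and 32.3 to 42.2 CPM with APL-9796 (median 34.9). The 2 highest libraries were female normoxia 8 and 9, at 58.5 and 66.1 CPM. Its log2 change was -0.22 ± 0.07 (FDR = 0.0298) with them and -0.08 (FDR = 0.399) without, and the call was lost in 20 of 36 fits without 1 library (FDR up to 0.113). Both hypoxic arms are compared with the same normoxic libraries, so these values are not independent of those for IgG.

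The antibody comparison itself, APL-9796 against IgG in hypoxia, called 0 of the 52 members and 0 of all 15570 genes (0%, smallest FDR 0.967). At an unadjusted p under 0.05 it had 1 member, Sema6a, and 626 genes (4.02%). DESeq2 and limma-voom also called no member. Of the members, 41 of 52 (78.8%) had a log2 difference above 0, with a median of 0.08, beside 51.7% and a median of 0.00 for all genes. These are counts without a test, and the IgG libraries in them are also those set against normoxia.

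Intervals limit how large a difference between the antibodies could have been. For Robo4 the log2 difference was 0.15, with a 95% interval from -0.06 to 0.37. For Sema3c it was 0.12 (-0.03 to 0.27), and for Unc5b 0.16 (-0.06 to 0.38). None of these intervals reached down to a loss as large as the rise of the gene from normoxia to IgG. The smallest p in this edgeR test belonged to Sema6a (0.21 ± 0.09, unadjusted p = 0.0186, FDR = 0.967), a transmembrane ligand of A plexins that had 94.9 to 174 CPM with IgG (median 118) and 121 to 159 CPM with APL-9796 (median 140.2). Efna2 (-0.30) and Sema5b (0.30) followed, each with an FDR of 0.967.

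**Figure D3:**
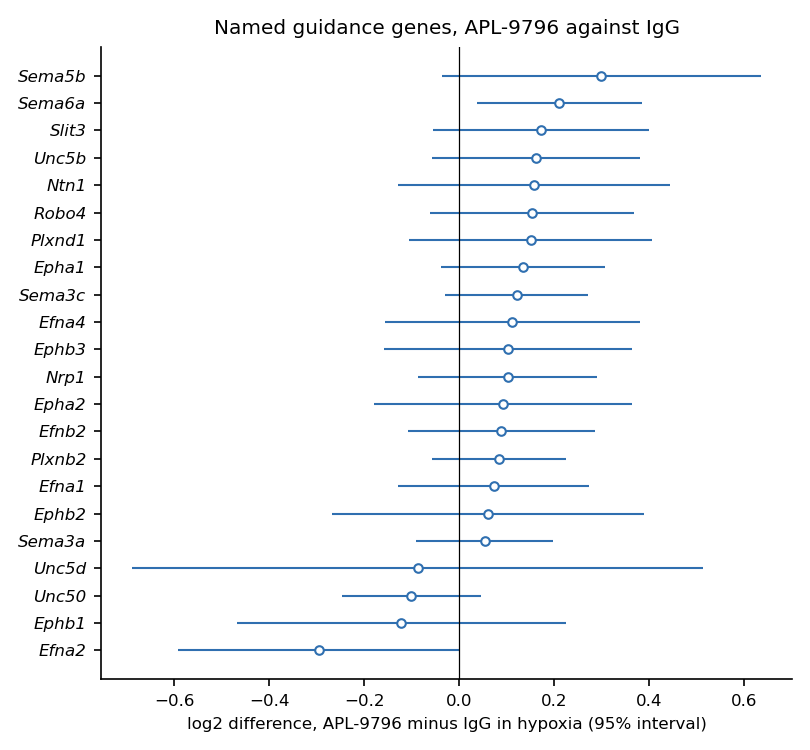
Log2 difference between APL-9796 and IgG in hypoxia (horizontal axis, 95% interval) for the 22 guidance genes named by the stated rule. No gene passed FDR 0.05, and Sema6a (0.21) is the one whose interval excludes 0.

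The sexes were also set apart. In males alone, 2 members, Sema3c and Robo4, rose with IgG and 0 fell, beside 3.10% of all genes called (1.88% higher, 1.22% lower). In females alone 10 rose and 3 fell, beside 15.5% of all genes (7.23% higher, 8.27% lower). The female rises were Sema3c, Robo4, Unc5b, Nrp1, Slit3, Epha1, Ephb1, Ephb2, Ephb3 and Unc5a, and the female falls Efna1, Sema3a and Unc50. Without female normoxia 8 and 9 the female counts were 3 and 3, beside 4.13% and 2.02% of all genes. In the largest run alone they were 1 and 0, beside 0.409% and 0.205%. With the run as a term they were 5 and 3, beside 4.94% and 5.38%. These alternatives were chosen after seeing the data. Robo4 rose by 0.79 ± 0.15 in males and 1.14 ± 0.15 in females, and Sema3c by 0.95 ± 0.11 and 0.86 ± 0.11.

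Tested directly, the difference between the sexes in the response to hypoxia with IgG passed for 0 of the 52 members (background 0.0128%). The lowest FDR belonged to Ephb1 (female minus male 1.26 ± 0.34, FDR = 0.134), Unc50 (-0.50 ± 0.14, FDR = 0.141) and Ephb2 (1.11 ± 0.33, FDR = 0.149). Ephb1, a receptor kinase known from brain, had 4.6 to 11.2 CPM in male normoxia and 3.67 to 8.53 CPM in male IgG. Female normoxia had 1.25 to 4.11 CPM and female IgG 3.40 to 6.53 CPM. limma-voom called these 2 Eph receptors and Plxnb2 higher in this contrast and Unc50 lower, beside 1.36% higher and 1.41% lower of all genes. Leaving out female normoxia 7 gave 4 higher and 1 lower, beside 1.85% and 1.73% of all genes. The difference between the sexes in the effect of APL-9796 against IgG passed for 0 members (background 0%), with Unc5d (1.38 ± 0.59, FDR = 0.963), Ephb2 and Efna4 at the smallest p.

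In normoxia, females were lower than males for 11 members and higher for 1, Unc50, beside 10.6% of all genes called (5.55% higher, 5.06% lower). Robo4 (-0.54 ± 0.15), Unc5b (-0.63 ± 0.16), Slit3 (-0.73 ± 0.16) and Ephb1 (-1.66 ± 0.25) were among the lower. Without female normoxia 8 and 9, Ephb1 alone was lower and 0 members were higher, beside 0.0953% and 0.0635% of all genes.

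**Figure D4:**
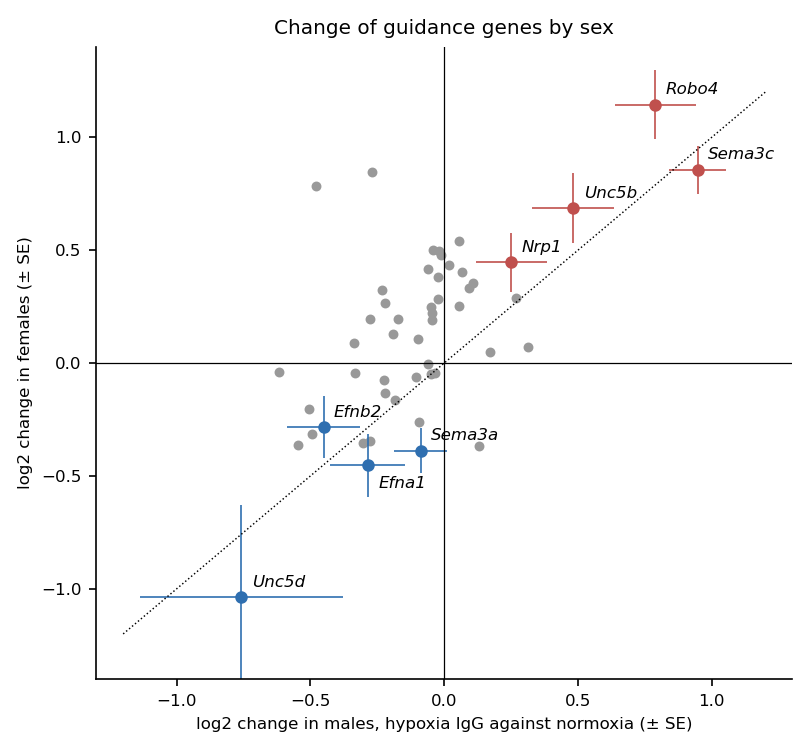
Log2 change between hypoxia with IgG and normoxia in males (horizontal axis) and females (vertical axis) for 51 tested guidance genes, with SE bars for the 8 that passed over both sexes; the dotted line marks equal change, and Plxnb3 lies outside the axes. Robo4 stands at 0.79 and 1.14 and Sema3c at 0.95 and 0.86, both in the upper right.

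Cell type markers moved in the same libraries. The summed level of 15 pan-endothelial markers had medians of 7028, 6509 and 6966 CPM in normoxia, IgG and APL-9796, within ranges of 5759 to 7630, 6072.5 to 7688 and 6199 to 8399 CPM. Of these 15 genes, 5 were higher with IgG (Emcn, Egfl7, Tie1, Pecam1 and Cdh5) and 5 lower (Clec14a, Ptprb, Tek, Eng and Erg). Of 14 fibroblast and pericyte markers, 8 were higher and 1 lower, with a summed range of 1577 to 5639 CPM in normoxia, 4262 to 7498 CPM with IgG and 3159.5 to 6302 CPM with APL-9796. All 6 smooth muscle markers were higher, with ranges of 142 to 399.7, 379 to 616 and 353 to 749 CPM. Of the 4 type II markers 3 were lower, with ranges of 16296 to 41656, 14694 to 20053 and 12455 to 18457 CPM, and without female normoxia 8 and 9 it was 1 of 4. Without female normoxia 8 and 9 the log2 changes of Robo4 and Sema3c were 0.89 and 0.90. All 6 smooth muscle markers were again higher without that pair. Fibroblast and pericyte markers again had 8 higher and 1 lower, and pan-endothelial markers 5 and 5. The part of these shifts in the changes of the guidance genes was not tested.

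The other marker lists held 3 to 12 tested genes each. With IgG, lymphatic endothelium had 3 higher and 1 lower of 5, type I cells 0 and 2 of 7, airway cells 1 and 1 of 8, macrophages 0 and 0 of 4, lymphocytes 0 and 3 of 12, and platelets 0 and 4 of 4. Nerve had 1 and 0 of 8, mesothelium 0 and 0 of 3, adipocytes 3 and 0 of 6, and cardiac and skeletal muscle 0 and 0 of 7. The median log2 change was -0.79 for platelets, 0.68 for lymphatic endothelium and 1.26 for adipocytes. The summed level of the lymphatic markers went the other way, with medians of 1079, 802 and 788 CPM in normoxia, IgG and APL-9796. A sum follows its most abundant genes, so it does not show that lymphatic markers fell as a group. Without female normoxia 8 and 9, 1 of the 4 platelet genes was lower. Airway cells then had 1 higher and 0 lower, lymphocytes 0 and 2, and adipocytes 2 and 0. Without the 3 libraries high in muscle markers, 0 of 5 adipocyte genes were called and their median was 0.33. Nerve then had 0 and 0 of 8, airway cells 0 and 1, and lymphocytes 0 and 2. The nerve markers, the cells in which guidance genes are best known, summed to medians of 82.2, 76.9 and 74.1 CPM in the 3 arms. No marker was at 0 in all libraries.

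**Figure D5:**
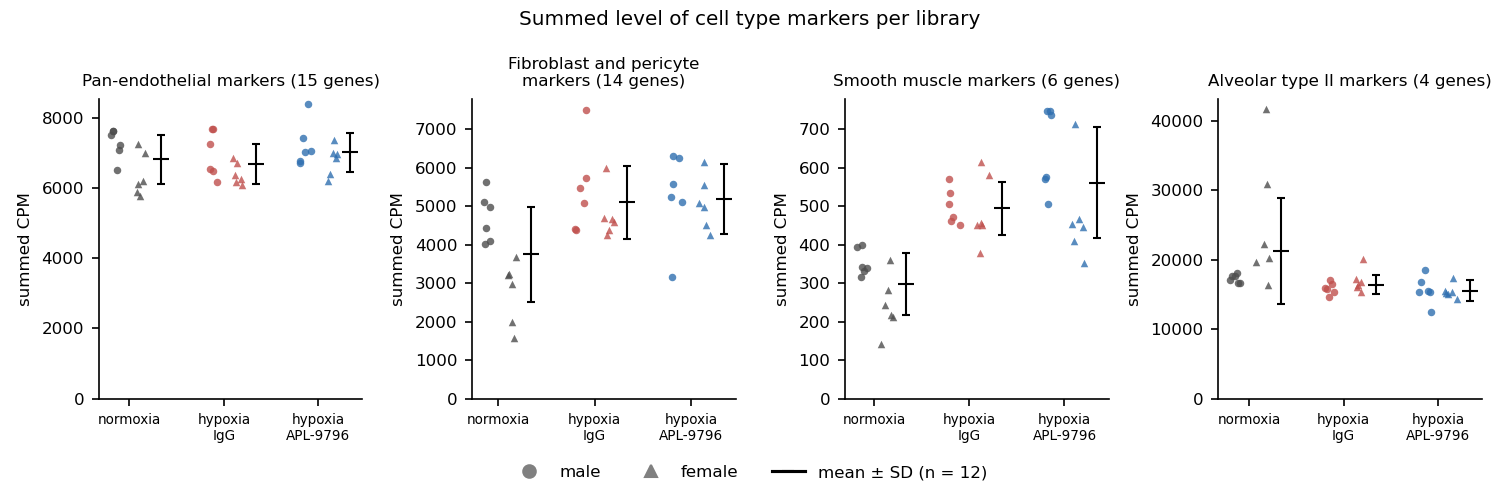
Summed CPM (vertical axis, from 0) of 4 marker lists in each library, by arm and sex, with the mean ± SD of each arm of 12. The 2 female normoxic libraries at 30826 and 41656 CPM of type II markers are those lowest in fibroblast and pericyte markers.

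Downstream of the receptors, 42 genes of adaptors, kinases and GTPase regulators were tested, and with IgG 4 were higher and 1 lower. Arhgef15, a signalling gene found in endothelium, went from 138.5 ± 27.9 to 198 ± 21.5 CPM (SD, n = 12, log2 0.52 ± 0.08, FDR = 1.6e-05). Micall2, which acts in membrane traffic, rose by 0.64 (FDR = 0.00026), Dpysl5, a collapsin response mediator, by 1.06 (FDR = 0.0158), and Ptk2, focal adhesion kinase, by 0.13 (FDR = 0.0301). Mical2, an enzyme that oxidises actin, fell by 0.20 (FDR = 0.0151). With APL-9796 the counts were 8 higher and 1 lower. Of 22 other guidance cues and adhesion partners, Cntnap1 (0.65, FDR = 0.0034) and Cntn2 (0.57, FDR = 0.0459), both of contacts between axon and glia, were higher with IgG. Flrt3, a ligand of Unc5 receptors, was lower (-0.28, FDR = 0.0405). These shares, 11.9% and 13.6%, were near the 12.5% of all genes. Without female normoxia 8 and 9, 4 of the 42 signalling genes were higher and 4 lower, beside 7.12% and 4.17% of all genes. Of the other cues, 2 of 23 were then higher and 0 lower, so Flrt3 was not called. Without the 3 libraries high in muscle markers, 5 signalling genes were higher and 1 lower. Of the other cues, 1 of 22 was then higher and 0 lower.

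The remaining 5 members had too few counts to test. Robo3, the receptor of crossing axons, had medians of 0.162 CPM in normoxia, 0.599 CPM with IgG and 0.422 CPM with APL-9796. Ntn2l, now called Ntn3, had medians of 0.556, 0.720 and 0.190 CPM. Epha5, Epha8 and Efna3 had a highest level of 0.715, 1.06 and 5.19 CPM over all arms, the last in a single APL-9796 library. Each of these genes had 0 counts in some library, which allows up to 0.144 to 0.494 CPM for counting error alone.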

How the data were processed

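The authors deposited a table of raw read counts for each gene; this unit follows from the values, which are whole and sum to different totals. DESeq2 1.24.0 is named, without its role, per the submitters' processing notes. For the aligner, counter, genome build and strand setting, nothing is given in the sources used here, and reads of overlapping or antisense genes cannot be separated. A line of totals held 0% of counts and stayed out, as did 1 item not reported here.

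Libraries were grouped by the arm and sex in the labels, which matched a deposited information sheet in 36 of 36. Counts were tested in edgeR 4.0.16 (R 4.3.3) with TMM scaling, filterByExpr and a robust quasi-likelihood fit of all 36 libraries with 6 group terms; contrasts over both sexes weighted them equally. P-values were adjusted over all 15570 genes kept, with a threshold of 0.05. Log2 changes are given ± SE. CPM uses TMM-scaled totals and is not per gene length, which was not available, so levels of different genes are not compared. The fit was tested on counts simulated with known changes. No 2 libraries of a group agreed within sampling noise.

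Alternatives were RLE scaling, no filter, 1 CPM in 12 libraries, DESeq2 1.42.0, limma-voom 3.58.1 with quality weights, only the groups compared, a replicate block, the sequencing run as a term, the largest run alone, 2 sets of libraries left out and each of the 36 libraries left out. No label names a run. Runs were taken from pool and flow cell codes in the read file names that the information sheet lists. They held 26, 9 and 1 libraries. The run of 1 library was female normoxia 8, so the effect of its run cannot be told apart from its own level. With the run as a term, that library has a term of its own and no weight in the contrasts. Text names each member past the threshold in a contrast over both sexes, the 3 smallest p where none passed, Robo4, and the member with most CPM in each family. Genes called in single-sex contrasts or under an alternative, and relatives mentioned for contrast, were added after their values were seen. Marker list counts without the libraries that stood apart were also added after seeing the data. Members, lists and tests were chosen with earlier results of these data known.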

Additional observations from a re-analysis of the deposited data

Results flagged for a closer look

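For the 22 named guidance genes, each of the 6 groups of 6 libraries was checked for a library far from the others by Dixon's criterion. Of the 132 groups checked, 15 held one, and chance gives about 1 in 20. High libraries were male normoxia 4 for Sema3c (640.4 CPM) and Unc5b (74.6 CPM), female APL-9796 9 for Nrp1 (665 CPM), female IgG 7 for Slit3 (264 CPM), male IgG 4 for Sema6a (174 CPM) and male IgG 5 for Epha2 (157 CPM). Male APL-9796 4 was high for Unc50 (42.2 CPM) and Sema5b (6.27 CPM), and male IgG 6 for Ephb2 (6.34 CPM). Low libraries were male normoxia 2 for Plxnb2 (364 CPM), male normoxia 5 for Efna1 (76.3 CPM), female APL-9796 12 for Unc5b (58.8 CPM) and male IgG 6 for Sema3a (38.9 CPM). Male APL-9796 4 was low for Ntn1 (10.3 CPM) and male APL-9796 6 for Efna4 (3.10 CPM).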

How the results depend on the processing

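The 19 genes named for a comparison kept their direction in it under every alternative run. Of the 3 named for their level alone, Plxnb2 with IgG went from a log2 change of 0.01 to -0.0353 with limma-voom and -0.0487 without female normoxia 8 and 9. Leaving out 1 library gave -0.0170 to 0.0580, with values below 0 without female normoxia 8 or 9. The number of members higher with IgG than in normoxia was 4, and 4 to 6 when 1 library was left out. The number lower was 4, and 12 with limma-voom (8.55% of all genes), 10 without female normoxia 8 and 9 (4.17%), 2 without the 3 libraries high in muscle markers (male APL-9796 5, female IgG 11 and male IgG 6, 3.86%), and 1 in the largest sequencing run alone (1.62%). Leaving out 1 library gave 2 (female IgG 7) to 8 (female normoxia 9). With APL-9796, 8 were higher, and 8 to 15 without 1 library (13 without male APL-9796 6, 15 without female normoxia 7). The 4 lower became 8 with limma-voom, 2 with the filter at 1 CPM and without that set, 1 with no filter and with only the groups compared, and 1 to 5 without 1 library. The cause was not tested. Where no share of all genes stands beside a count, the count does not show a change particular to the members.

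APL-9796 against IgG gave 0 members under all alternatives. The difference by sex in the response to IgG gave 3 higher and 1 lower with limma-voom, and 0 to 4 higher and 0 to 1 lower without 1 library, the highest without female normoxia 7. Chosen after seeing the data, the largest run alone, female normoxia 8 and 9 left out and the run as a term gave 1, 3 and 5 members higher and 0, 3 and 3 lower with IgG in females. In males the numbers lower were 0, 2 and 0. For females against males in normoxia they gave 0, 0 and 1 higher and 1, 1 and 6 lower. In that contrast 5.55% of all genes were higher and 5.06% lower over all libraries. Without female normoxia 8 and 9 these shares were 0.0635% and 0.0953%. Counts without such a share do not show a change particular to the members.

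Labels give each sex the same replicate numbers in every arm, but do not say what a number marks. With a replicate block, 4 members were higher and 4 lower with IgG, 10 and 4 with APL-9796, and 0 between antibodies. Shares of all genes in that fit are not given here, so these counts stand without a background. Same-numbered libraries deviated together with r over 0.1 in 9 of 36 pairs (median 0.04), and 9 of 36 libraries matched their own number best, so the numbers were not taken to pair samples.

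Depth limits the scarce genes: Unc5d had 834 counts in all libraries together. Runs were unevenly spread over the arms, most of all in females. The largest run held all 6 male normoxic libraries and 5 in each male hypoxic group. It held 3 female normoxic, 2 female IgG and 5 female APL-9796 libraries. Run and arm are therefore partly mixed in the comparisons over both sexes.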
